A study of Arabidopsis thaliana with 30 samples.

Results

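The plastid genome of Arabidopsis encodes subunits of the photosynthetic complexes of the thylakoid membrane, part of the machinery that transcribes and translates the plastid's own genes, and a few other proteins. Photosystem II (psb genes) and photosystem I (psa) carry out the light reactions, the cytochrome b6f complex (pet) passes electrons between them, the ATP synthase (atp) makes ATP, and the NDH complex (ndh) returns electrons to the plastoquinone pool in cyclic electron flow. Plastid mRNAs are translated inside the organelle on ribosomes of a bacterial type, whose remaining subunits, like those of the photosystems, are encoded in the nucleus and imported. Most plastid genes lie in clusters that are transcribed together and then processed, so neighbours share precursor RNA and their probe sets are not independent.

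Here every plastid-encoded protein gene with a probe set of its own was followed. Of 78 distinct plastid protein-coding symbols in the RefSeq gene table (85 gene entries, because genes of the inverted repeat are listed once per copy), 69 had a probe set annotated to that gene alone, and none had more than 1. They comprised 15 photosystem II, 5 photosystem I, 6 cytochrome b6f, 6 ATP synthase and 10 NDH genes. The genetic machinery was represented by 8 genes of the small (rps) and 7 of the large (rpl) ribosomal subunit and 4 of the plastid RNA polymerase (rpo). A further 8 did not belong to these classes: matK (a maturase for intron splicing), rbcL (the large subunit of Rubisco), accD (a subunit of acetyl-CoA carboxylase), clpP (a protease subunit), cemA (an envelope membrane protein), ccsA (cytochrome c assembly), and ycf3 and ycf4 (photosystem I assembly). The other 9 symbols are not among the genes followed. The 8 probe sets annotated to both copies of repeated plastid genes are described apart from the 69.

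All samples were whole seedlings, 7 days old, of the Col-0 line 35S:His6FLAG-RPL18B, a single-copy transgene in which the cauliflower mosaic virus 35S promoter drives a tagged ribosomal protein, so every group carried it. RPL18B is a protein of the large subunit of cytosolic ribosomes. Seedlings were held under hypoxia for 2 h, under hypoxia for 9 h, or under hypoxia for 9 h and then in air for 1 h (recovery), and non-stress seedlings were kept in air for 2 h or 9 h; treatments began at the end of the light period, in dim light. From each condition, polysomal RNA, obtained by immunopurification (labelled IP), and total RNA were labelled for Affymetrix arrays, with 3 independent replicates of the experiment: 10 groups of 3 arrays and 30 arrays in all. The labels give the molecule as polyA RNA for both pools, but not how plastid transcripts entered the labelling.

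Total RNA arrays had nearly equal means (5.76 to 5.79 by group on the deposited log2 scale), whereas polysomal arrays averaged 4.54 and 4.34 at 2 h and 9 h of hypoxia, 5.20 in recovery and 5.36 in air at both times. Total RNA was therefore compared on the deposited values, and every comparison that involves polysomal RNA was made after each array's own mean was subtracted (mean-centred values); changes of polysomal RNA are then relative to the average probe set of the same array. The 3 markers of the low-oxygen response rose at 9 h of hypoxia in total RNA, with a median log2 change of 7.25. Of 4 green-tissue markers 1 could be measured, LHCB4.2, which averaged 10.93 in 9 h hypoxia and 12.98 in 9 h air in total RNA and was itself 1.71 higher in 9 h air than in 2 h air; the 3 root markers were also lower in hypoxia, by log2 changes of -1.04 to -2.67. Whole seedlings were used, so in the total RNA comparisons a different share of green cells and a different amount of plastid RNA per cell cannot be told apart.

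In total RNA the plastid-encoded transcripts were among the brightest on the array. Their median percentile among the 22746 probe sets tested lay between 96.9 and 97.6 in the 5 groups, and 58 to 65 of the 69 were above the 90th percentile. The ATP synthase genes atpE and atpB, which are transcribed together and encode the epsilon and beta subunits of its catalytic part, were the brightest. atpE averaged 14.09 in 9 h hypoxia and 13.97 in 9 h air. Its highest single values there (14.14 and 14.07) equalled the highest value of any probe set in those groups. The dimmest in the 9 h hypoxia and 9 h air groups, ndhF, averaged 8.64 and 7.44 there; the dimmest was ndhF in 2 h hypoxia (7.82), ndhH in 2 h air (7.76) and rpoC2 in recovery (7.98). Probe sets differ in efficiency, and the arrays give no value per length, so this order is one of signals and not of transcript numbers.

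The plastid transcripts varied between replicates more than other probe sets did. The median SD over 3 replicates was 0.22 to 0.30 for the 69 genes in the total RNA groups, against 0.115 to 0.126 over all probe sets and 0.111 to 0.144 over 3572 other probe sets as bright. In polysomal RNA it was 0.294 to 0.454 for the plastid genes, against 0.129 to 0.154 over all probe sets. As a result, the median standard error of a change between groups was 0.338 for the plastid genes and 0.131 over all probe sets. Replicate 1 was often the low one in total RNA: it held the lowest of the 3 values for 58 of 69 genes in 2 h hypoxia and 37 in 2 h air, for 52 in 9 h hypoxia and 40 in 9 h air, and for 33 in recovery. For 25 of the 69 replicate 1 was lowest in all 5 total RNA groups, and no gene was lowest in replicate 2 or in replicate 3 throughout.

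In polysomal RNA the same 69 transcripts were far lower than in total RNA, in every condition and every functional class. The median log2 difference, polysomal minus total on mean-centred values, was -5.02 in 2 h hypoxia, -4.86 in 2 h air, -5.46 in recovery, -5.04 in 9 h hypoxia and -5.10 in 9 h air. Over all probe sets the median difference was 0.03 to 0.05. All 69 were lower at an adjusted p under 0.05 (limma, Benjamini-Hochberg adjustment across the array) in all 5 conditions; the background was 14.8% of all probe sets lower in 2 h hypoxia, 19.4% in 2 h air, 17.6% in recovery, 17.5% in 9 h hypoxia and 18.1% in 9 h air. Of the 100 probe sets with the lowest difference, 68 were plastid-encoded genes in 2 h hypoxia, 65 in 2 h air, 69 in recovery, 68 in 9 h hypoxia and 68 in 9 h air, and in each condition a further 8 were the probe sets annotated to both copies of repeated plastid genes.

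psbB, which encodes the CP47 core antenna protein of photosystem II, shows the size of the gap. On the mean-centred scale psbB had -0.52, -1.70 and -0.51 in polysomal RNA of 2 h hypoxia (replicates 1 to 3), against 5.34, 6.27 and 6.31 in total RNA. The difference, -6.88 ± 0.358 (log2 ± SE, n = 3 arrays a group, adjusted p = 1.3e-13), was far beyond the replicate spread. On the deposited scale the polysomal values of psbB (4.01, 2.85 and 4.02) lay near or below the medians of their arrays (3.99 to 4.04) and carry no detection call, so the size of the difference is bounded by the low end of the scale. At the other end was psbM, a small subunit of photosystem II: psbM had 5.46, 4.75 and 5.76 in polysomal RNA of 2 h hypoxia, against 7.69, 7.73 and 7.79 in total RNA. No polysomal array reached the total RNA arrays for either gene.

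**Figure D1:**
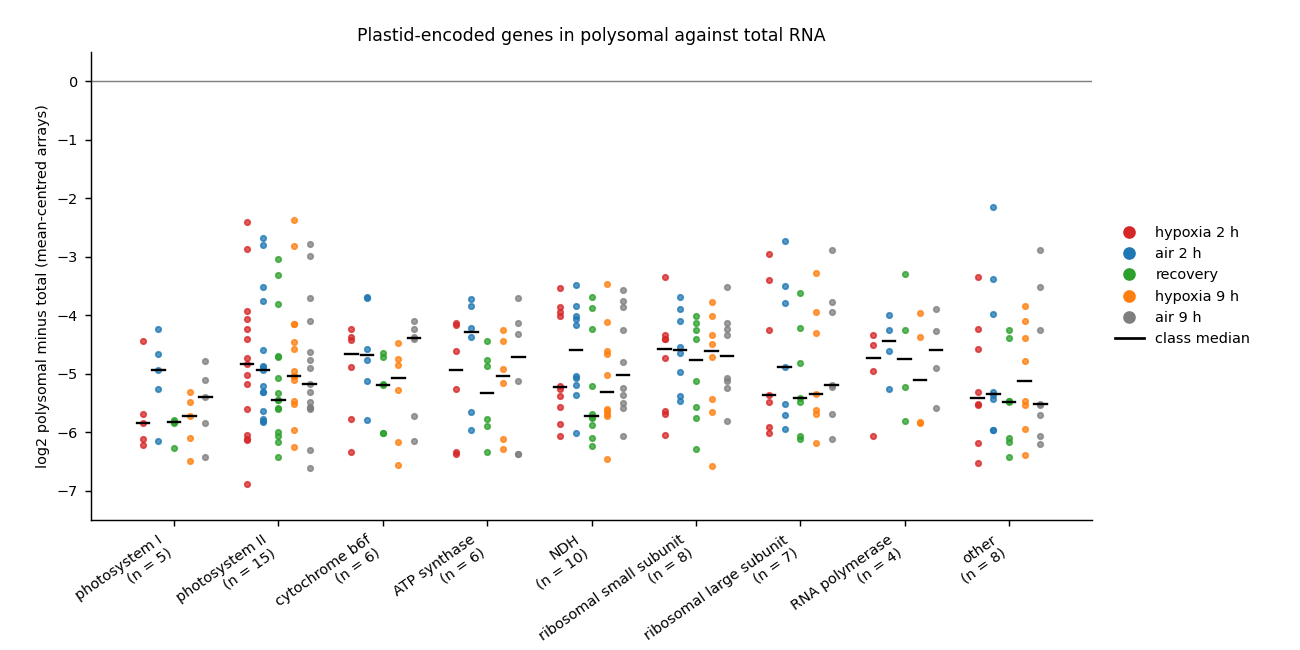
Difference between polysomal and total RNA (log2, mean-centred arrays, y axis) for each of the 69 plastid-encoded genes (points), by functional class (x axis) and condition (colour), with the class median as a black bar. All points lie below -2, and the medians of the classes lie between -4.29 (ATP synthase, 2 h air) and -5.85 (photosystem I, 2 h hypoxia).

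The classes overlapped in how much lower they were. Median differences by class lay between -4.29 (ATP synthase in 2 h air) and -5.85 (photosystem I in 2 h hypoxia), and differences between classes were not tested. In 9 h air the photosystem I median was -5.40, photosystem II -5.18, cytochrome b6f -4.39, ATP synthase -4.72, NDH -5.02, small ribosomal subunit -4.71, large ribosomal subunit -5.20 and RNA polymerase -4.59. The least lowered were psbM in 2 h hypoxia (-2.41), recovery (-3.03), 9 h hypoxia (-2.38) and 9 h air (-2.78), and matK in 2 h air (-2.15). Those with the lowest measured difference were psbB in 2 h hypoxia (-6.88), psaA, an apoprotein of the photosystem I reaction centre, in 2 h air (-6.15), psbA, the D1 protein of the photosystem II reaction centre, in recovery (-6.42), rps14 in 9 h hypoxia (-6.58) and psbB in 9 h air (-6.61).

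The order of the genes in this difference was alike across conditions. Across the 69 genes the difference in 2 h hypoxia and that in 2 h air had a Pearson correlation of 0.88 (Spearman 0.87), and the 9 h pair 0.90 (0.91); genes of 1 transcription unit are not independent, and the values share probe sets. The level in polysomal RNA followed the level in total RNA across genes (0.89 and 0.90 in 2 h air, 0.86 and 0.88 in 9 h air). By contrast, the difference was nearly unrelated to the total RNA level in 9 h air (0.06 and 0.07), which enters that difference itself, and to the length of the gene (-0.04 for both coefficients).

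What remained in polysomal RNA spanned a wide range of signal. The 69 genes had a median percentile of 52.5 in 2 h hypoxia, 51.8 in 2 h air, 45.8 in recovery, 58.1 in 9 h hypoxia and 49.2 in 9 h air. Between 29 and 37 of them were below the middle of the array and 5 to 8 below its 25th percentile; petG and psbT, small subunits of the cytochrome b6f complex and photosystem II, were among these, at mean-centred values of -1.90 to -2.70 and -1.98 to -2.61 on the 15 polysomal arrays. The deposited values carry no detection call, so for such genes the low end of the scale bounds the difference. psbM stayed between 9.61 and 10.21 on the deposited scale, above the 96th percentile of every polysomal group.

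Genes of related function outside the plastid genome had smaller median differences. Of 47 nuclear photosynthesis genes 8 could be measured, with a median polysomal minus total difference of 0.21 in 2 h hypoxia, -0.15 in 2 h air, -0.24 in recovery, 0.07 in 9 h hypoxia and -0.13 in 9 h air. The 16 mitochondrion-encoded genes, whose mRNAs are also translated inside their organelle, were a selection by symbol and not the whole mitochondrial genome. They had medians of -1.48, -0.91, -1.14, -1.93 and -0.85 in the same order, and 12 to 14 of the 16 were lower at an adjusted p under 0.05. These were dim genes, at a median percentile of 41.4 to 60.4 in total RNA and 28.6 to 31.0 in polysomal RNA, so the low end of the scale bounds their difference more tightly than that of the plastid genes. The difference between these lists was not tested. The cause of the lower signal was not tested either; the tagged protein belongs to cytosolic ribosomes.

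After 2 h of hypoxia 1 plastid gene changed in total RNA. Of the 69 only rpl14, a protein of the large ribosomal subunit, rose and none fell (1.45% of 69, against a background of 8.20% of all probe sets higher and 12.5% lower). It had 8.68, 8.99 and 9.26 (deposited log2) in 2 h hypoxia, against 8.34, 8.82 and 8.14 in 2 h air, so that the groups overlapped at 1 value; the change was 0.54 ± 0.175 (n = 3 a group, adjusted p = 0.0281). The median change of the 69 was 0.14, and 55 of 69 were above 0. By replicate number the median was -0.02, 0.11 and 0.30. The single call went when replicate 2 or 3 of 2 h hypoxia, or replicate 1 or 3 of 2 h air, was left out (0 calls each), whereas without replicate 1 of 2 h hypoxia there were 4.

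After 9 h of hypoxia 9 of the 69 rose and none fell in total RNA, which is 13.0%, below the background of 21.3% of all probe sets higher and 24.5% lower. The plastid genes had larger standard errors (median 0.338, against 0.131 over all probe sets), so these shares are not directly comparable. The 9 came from 6 classes: psbN and psbD of photosystem II, petN of the cytochrome b6f complex, atpI of the ATP synthase, ndhH and ndhK of the NDH complex, rpl14 and rpl16 of the large ribosomal subunit, and rpoA, the alpha subunit of the plastid RNA polymerase. No photosystem I or small ribosomal subunit gene and none of the 8 unclassed genes passed. The median change of all 69 was 0.29, with 59 above 0, against 0.03 over all probe sets. Control probe sets of the array averaged 8.92 ± 0.14 in 9 h hypoxia and 8.22 ± 0.10 in 9 h air (SD, n = 3), and their part in the shift was not tested.

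psbN and rpl14 were the 2 whose calls held under each of the 15 alternatives tried. psbN, a small protein needed for photosystem II assembly that is encoded on the strand opposite to the psbB cluster, had 9.13, 9.15 and 9.30 in 9 h hypoxia, against 7.94, 8.63 and 8.48 in 9 h air. The groups did not overlap, and the change was 0.85 ± 0.192 (adjusted p = 0.000629); the sources used here do not say whether the labelled target kept its strand. rpl14 had 9.11, 9.04 and 9.68 in 9 h hypoxia, against 8.41, 8.60 and 8.59 in 9 h air, a change of 0.74 ± 0.175 (adjusted p = 0.00097), also without overlap. Its cluster of 7 measured genes, transcribed together, held 3 of the 9 calls: rpl14, rpl16 at 0.61 ± 0.217 (adjusted p = 0.0229) and rpoA at 0.51 ± 0.203 (adjusted p = 0.0433). Of these only the rpl14 call was stable, since rpl16 lost its call in 6 of the 15 alternatives and rpoA in 8. The other 4 genes of that cluster did not pass, and rps3 was at -0.21.

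The other calls had wider replicate spread. petN, a subunit of the cytochrome b6f complex, had 10.02, 10.42 and 10.84 in 9 h hypoxia, against 8.25, 9.73 and 9.79 in 9 h air, a change of 1.17 ± 0.396 (adjusted p = 0.0173). ndhH had 8.44, 9.10 and 9.35 in 9 h hypoxia, against 7.10, 8.73 and 8.33 in 9 h air (0.91 ± 0.315, adjusted p = 0.0196). For both, replicate 1 of 9 h air was the low array, and the hypoxic values overlapped the air values for ndhH but not for petN. atpI, the membrane subunit a of the ATP synthase, changed by 0.84 ± 0.236 (adjusted p = 0.00461), with 8.80, 8.56 and 9.20 in 9 h hypoxia, against 7.39, 8.47 and 8.18 in 9 h air. psbD, the D2 protein of the photosystem II reaction centre, changed by 0.79 ± 0.313 and ndhK by 0.75 ± 0.25 (adjusted p = 0.0413 and 0.0153).

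Leaving out single arrays changed this count. Without replicate 1 of 9 h air only psbN and rpl14 passed (2 genes), without replicate 2 of 9 h hypoxia 4 did (psbN, rpl14, atpI and petN), and without replicate 3 of 9 h hypoxia 5 did. Without replicate 3 in both groups 2 passed, psbN and rpl14. By replicate number the median difference of the 69 was 0.25, 0.13 and 0.43, with 52, 48 and 65 genes above 0, and no gene fell under any of these. With each array's median subtracted, which moved the median of the 69 to 0.45, 16 rose and the background was 39.5% higher and 19.3% lower. In a fit of these groups alone 15 rose and 3 fell (background 20.5% higher and 24.5% lower). With quantile normalization the count was lower, at 6 genes, and psbD (0.71), rpl16 (0.51) and rpoA (0.42) did not pass.

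The gene with the largest average change, ndhF, did not pass. It had 7.42, 9.34 and 9.17 in 9 h hypoxia, against 5.09, 9.07 and 8.17 in 9 h air, a change of 1.20 ± 0.79 (adjusted p = 0.229). Replicate 1 was the low one in both groups. rpoB, the beta subunit of the plastid polymerase, was similar, with 9.23, 9.52 and 9.88 in 9 h hypoxia against 7.27, 9.57 and 9.13 in 9 h air (0.89 ± 0.407, adjusted p = 0.0777). So was rps14, with 10.41, 11.03 and 11.15 in 9 h hypoxia against 8.93, 10.73 and 10.59 in 9 h air (0.78 ± 0.369, adjusted p = 0.0888).

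**Figure D2:**
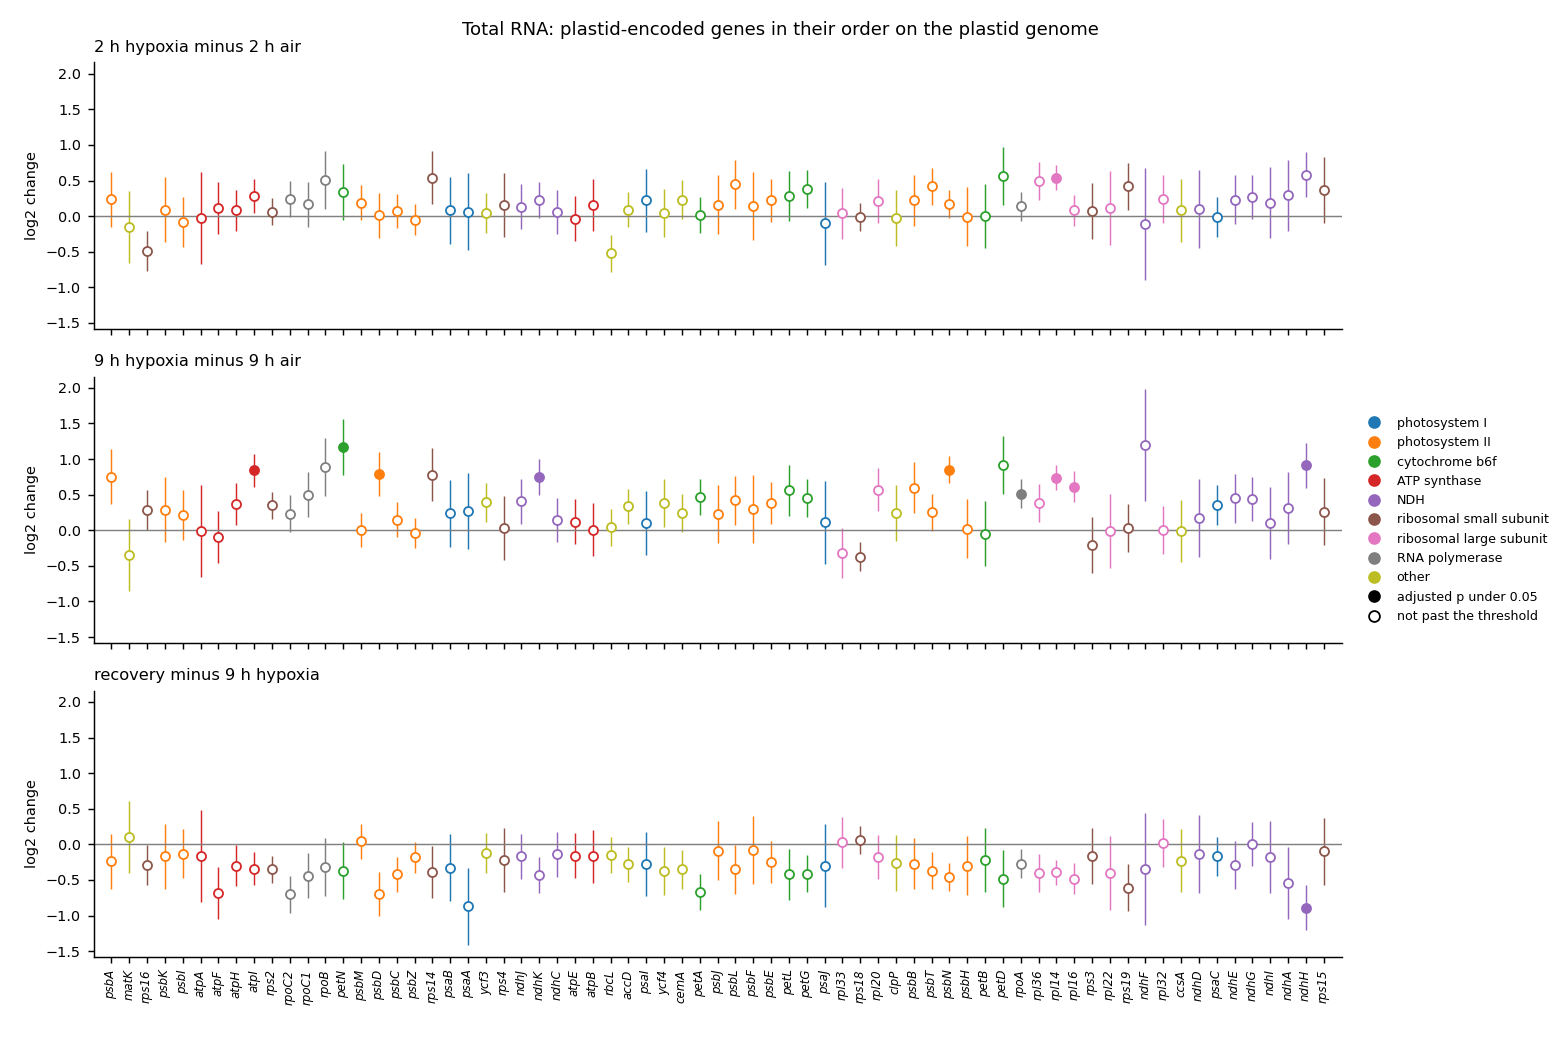
Log2 change in total RNA (y axis, points, with standard errors) of each of the 69 plastid-encoded genes in the order of the genes on the plastid genome (x axis), for 2 h hypoxia minus 2 h air (top), 9 h hypoxia minus 9 h air (middle) and recovery minus 9 h hypoxia (bottom). Filled points passed an adjusted p of 0.05: 1 rise at 2 h, 9 rises at 9 h and 1 fall in recovery.

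The class medians at 9 h were 0.24 for photosystem I, 0.29 for photosystem II, 0.52 for cytochrome b6f, 0.07 for ATP synthase, 0.42 for NDH, 0.14 for the small and 0.38 for the large ribosomal subunit and 0.50 for RNA polymerase. All 10 NDH genes, all 5 photosystem I and all 4 polymerase genes were above 0, as were 14 of 15 photosystem II genes. Of the class examples, psbA, psaA, atpB, rbcL, petB and rps4 did not pass. psbA had 11.96, 12.57 and 12.55 in 9 h hypoxia, against 11.33, 11.98 and 11.52 in 9 h air (0.75 ± 0.387, adjusted p = 0.119), and the lowest hypoxic value fell inside the air range. psaA had 10.04, 11.62 and 11.89 in 9 h hypoxia, against 9.86, 11.55 and 11.35 in 9 h air (0.27 ± 0.54, adjusted p = 0.727). atpB had 13.68, 14.03 and 13.97 in 9 h hypoxia, against 13.88, 13.96 and 13.82 in 9 h air (0.01 ± 0.367). rbcL had 9.88, 10.53 and 10.67 in 9 h hypoxia, against 9.80, 10.78 and 10.36 in 9 h air (0.04 ± 0.259, adjusted p = 0.913). petB, cytochrome b6 itself, and rps4 differed by -0.05 ± 0.454 and 0.03 ± 0.447. The groups overlapped for each of these genes.

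At 9 h the dimmer transcripts had the larger changes in total RNA. Ordered by their level in the separate 2 h air arrays, the 23 dimmest genes (7.76 to 9.91) had a median change of 0.61, all 23 were above 0 and 8 of the 9 rises were among them. The 23 in the middle (9.97 to 11.23) had a median of 0.27 and 1 rise, and the 23 brightest (11.53 to 14.04) had a median of 0.10 and 0 rises. Across the 69 genes the Pearson correlation of change and level was -0.64 (Spearman -0.67). This split was made after the values were seen, and the classes differ in brightness. The highest value of any probe set in 9 h hypoxia (14.14) equalled that of atpE, 1 of these genes. It therefore sets no separate upper end of the scale, and a limit on the brightest signals was not tested. The correlation of the change with gene length was 0.12 (Spearman 0.06).

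**Figure D3:**
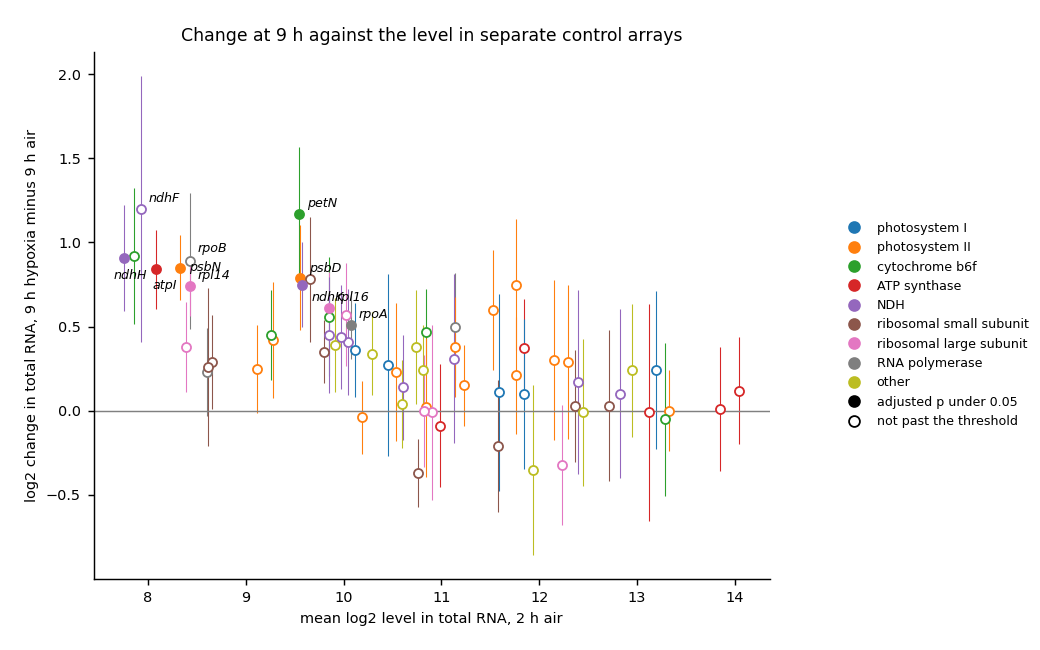
Log2 change in total RNA at 9 h of hypoxia minus 9 h of air (y axis, points, with standard errors) against the mean log2 level in the separate 2 h air arrays (x axis), coloured by class, with genes that passed an adjusted p of 0.05 filled. Of the 9 filled points 8 lie at levels of 9.91 or lower.

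Genes with related products in other genomes are given beside the same background at 9 h in total RNA, 21.3% of all probe sets higher and 24.5% lower. Here 14 of the 16 mitochondrion-encoded genes rose, with a median of 0.99. Of the 8 nuclear photosynthesis genes 4 fell and none rose, with a median of -0.22; LHCB4.2, an antenna protein of photosystem II, fell by 2.05. Of the same 8 genes 5 were higher in 9 h air than in 2 h air, where the background was 2.81% higher. Both measured nuclear NDH subunits rose, NdhL by 0.87 ± 0.0949 and NdhN by 0.60 ± 0.0845. In 9 h air against 2 h air NdhN itself changed by -0.80 and passed, and NdhL by -0.25 without passing. Of 9 measured nuclear genes for plastid ribosomal proteins 5 rose at 9 h of hypoxia (median 0.21).

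After 1 h of return to air 1 plastid transcript changed in total RNA relative to 9 h hypoxia. The median of recovery minus 9 h hypoxia was -0.29, with 63 of 69 at or below 0; the median over all probe sets was -0.04. ndhH fell, and no gene rose, against a background of 9.65% of all probe sets lower and 12.5% higher. ndhH had 7.78, 8.62 and 7.82 in recovery, against 8.44, 9.10 and 9.35 in 9 h hypoxia, a change of -0.89 ± 0.315 (adjusted p = 0.0421) with an overlap of 1 value. The call was lost without replicate 1 or 3 of recovery or replicate 2 or 3 of 9 h hypoxia. Without replicate 3 of recovery or of 9 h hypoxia 0 genes fell; without replicate 2 of recovery 2 did, and without replicate 1 of 9 h hypoxia 3. A fit that blocked on replicate number gave 4 falls (background 14.2% higher and 11.5% lower).

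Between recovery and 9 h air 0 of 69 passed in total RNA (limma, adjusted p), where 18.2% of all probe sets were higher and 20.6% lower. At an unadjusted p under 0.05 there were 2, in opposite directions: atpI at 0.50 and atpF at -0.77. The median was 0.03, and 36 of 69 were above 0. Blocked on replicate number, 2 were higher and 1 lower (background 19.4% higher and 22.1% lower). A single gene (1) passed without replicate 2 of recovery, without replicate 1 of 9 h air or without replicate 2 of 9 h air. Between the control groups, 9 h air against 2 h air, 0 of 69 passed (0 also at an unadjusted p under 0.05; background 2.81% higher and 4.24% lower), with a median of 0.03.

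In polysomal RNA 3 plastid genes changed at 2 h and 5 at 9 h of hypoxia, among them psbC and matK at both times. At 2 h of hypoxia psbL rose and psbC and matK fell (background 15.7% of all probe sets higher and 17.6% lower), and the median of the 69 was -0.12. psbL is a small subunit of photosystem II, and psbC encodes the CP43 core antenna protein. psbL had mean-centred values of -0.49, -1.17 and 0.79 in polysomal RNA of 2 h hypoxia, against -1.54, -1.37 and -1.29 in 2 h air. All 3 hypoxic values were the higher ones, and the change was 1.11 ± 0.346 (adjusted p = 0.0139). The other genes of its cluster, which is transcribed as psbE, psbF, psbL and psbJ, were at 0.52 ± 0.297, 1.08 ± 0.476 and 0.97 ± 0.411 for psbE, psbF and psbJ (adjusted p = 0.198, 0.0851 and 0.0732), while the same 4 genes were at 0.14 to 0.45 in total RNA without passing. Replicate 3 was the high array for all 4 genes in hypoxia, and without it psbL was at 0.57 and did not pass.

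psbC had -0.08, -0.61 and -1.07 in polysomal RNA of 2 h hypoxia, against 0.12, -0.02 and 0.28 in 2 h air, without overlap (-0.71 ± 0.245, adjusted p = 0.0256). matK had 3.70, 2.75 and 1.56, against 3.80, 3.83 and 4.38, a change of -1.33 ± 0.506 (adjusted p = 0.0435), again without overlap. The replicates disagreed on the set as a whole. By replicate number the median difference of the 69 was 0.31, -0.23 and -0.44, with 54, 18 and 22 genes above 0. Without replicate 3 of 2 h hypoxia 1 gene passed, which was none of psbL (0.57), psbC (-0.47) and matK (-0.78). Without replicate 1 of 2 h hypoxia 9 passed. psbC did not pass without replicate 2 or 3 of 2 h hypoxia or replicate 1 or 3 of 2 h air (-0.47 to -0.71), and matK passed only where replicate 1 of 2 h hypoxia was the array left out.

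At 9 h of hypoxia psbB, rbcL and psbC rose in polysomal RNA and matK and rps18 fell, against a background of 22.6% of all probe sets higher and 25.3% lower. rbcL was the clearest, with 0.32, -0.12 and 0.44 in 9 h hypoxia, against -0.93, -1.34 and -0.71 in 9 h air, a change of 1.21 ± 0.259 (adjusted p = 0.000335). psbB had 0.82, 0.29 and 0.18 in 9 h hypoxia, against -0.96, -1.01 and -0.48 in 9 h air, a change of 1.24 ± 0.358 (adjusted p = 0.00525). Neither gene overlapped between the groups, and both kept their call in each fit that left out arrays. psbC had 0.86, 0.58 and 0.51 in 9 h hypoxia, against -0.03, -0.44 and 0.30 in 9 h air (0.71 ± 0.245, adjusted p = 0.019); it did not pass without replicate 1 of 9 h hypoxia (0.61) or replicate 2 of 9 h air (0.52).

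The genes that fell were outside the photosystems. rps18, a protein of the small ribosomal subunit, had 0.60, 0.64 and 1.22 in polysomal RNA of 9 h hypoxia, against 1.31, 1.38 and 1.64 in 9 h air, without overlap (-0.62 ± 0.201, adjusted p = 0.0116). matK had 2.79, 2.45 and 0.44 in 9 h hypoxia, against 3.38, 2.69 and 3.48 in 9 h air, with an overlap of 1 value (-1.29 ± 0.506, adjusted p = 0.0374). Replicate 3 of hypoxia was the low array. matK did not pass without that array (-0.56), nor without replicate 1 (-1.19) or 3 (-1.14) of 9 h air. rps18 did not pass without replicate 1 (-0.52) or 2 (-0.53) of 9 h hypoxia or replicate 3 of 9 h air (-0.53). The class medians were 0.45 for photosystem II, with all 15 genes above 0, 0.04 for photosystem I, 0.14 for cytochrome b6f, -0.02 for ATP synthase, 0.18 for NDH, -0.02 and 0.18 for the small and large ribosomal subunits and 0.21 for RNA polymerase. psbA had 1.58, 0.96 and 0.87 in 9 h hypoxia, against 0.46, 0.02 and 0.21 in 9 h air, without overlap, and did not pass at 0.91 ± 0.391 (adjusted p = 0.0582).

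By replicate number the median difference of the 69 in polysomal RNA at 9 h was 0.21, 0.44 and -0.17. Without replicate 2 of 9 h hypoxia 8 genes passed (7 higher and 1 lower), and without replicate 3 of 9 h air 8 passed, all higher. Blocked on replicate number, 9 passed, 7 higher and 2 lower (background 23.9% higher and 26.3% lower). The direction of polysomal changes under hypoxia depends on the scale: on the deposited values, where 88.8% of all probe sets were lower and 4.53% higher at 9 h, 42 of the 69 plastid genes were lower and none higher, and psbB and rbcL did not pass (0.23 and 0.19). At 2 h on that scale 50 of 69 were lower and none higher, with 88.1% of all probe sets lower and 2.74% higher.

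The 2 h and 9 h effects in polysomal RNA differed for 5 genes in a test of the difference added after the values were seen: psbB, psbA, rbcL and psbC were higher and rps18 lower at 9 h (background 9.14% of all probe sets higher and 11.6% lower). In total RNA 0 of 69 differed (limma; 1 at an unadjusted p under 0.05; background 8.12% higher and 10.1% lower). Between the polysomal control groups, 9 h air against 2 h air, 0 of 69 passed (limma; background 4.0% higher and 4.26% lower). The 2 genes at an unadjusted p under 0.05 were psbA (-0.88) and psbB (-0.74), whose 9 h air arrays enter the differences of effects above.

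**Figure D4:**
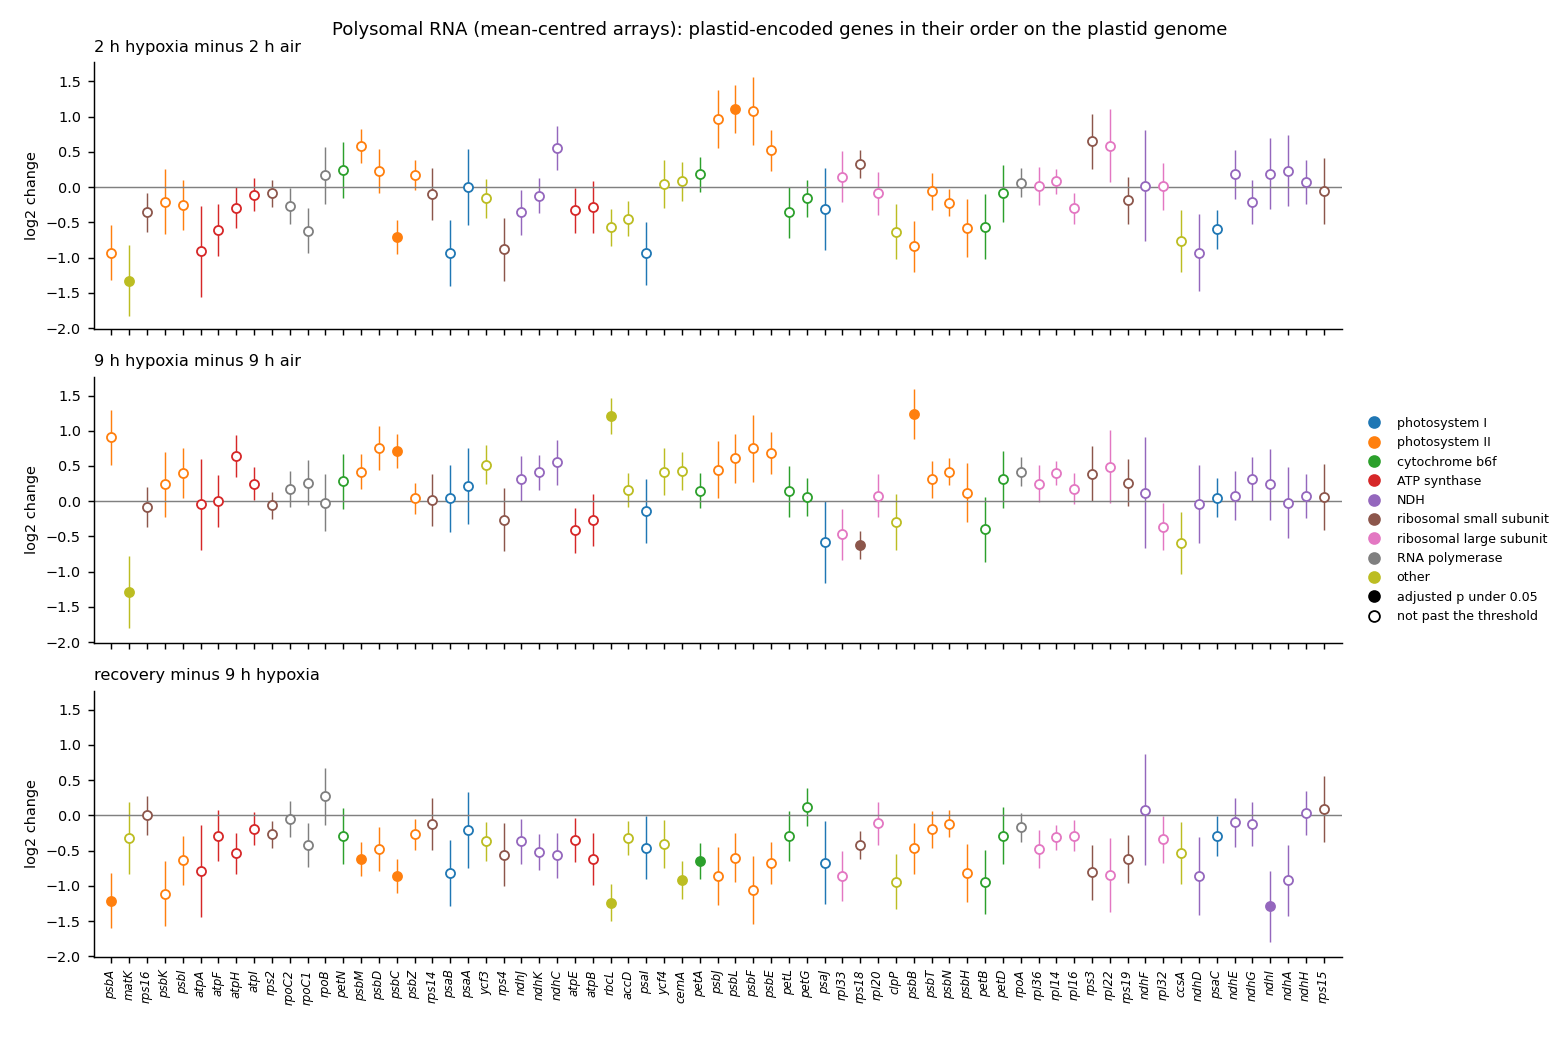
Log2 change in polysomal RNA (mean-centred arrays, y axis, points, with standard errors) of the 69 plastid-encoded genes in the order of the genes on the plastid genome (x axis), for 2 h hypoxia minus 2 h air (top), 9 h hypoxia minus 9 h air (middle) and recovery minus 9 h hypoxia (bottom). Filled points passed an adjusted p of 0.05: 3 at 2 h, 5 at 9 h and 7, all falls, in recovery.

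In recovery 7 plastid transcripts fell in polysomal RNA relative to 9 h hypoxia and none rose, against a background of 18.1% of all probe sets lower and 18.9% higher; the median of the 69 was -0.46. They were psbA, psbC and psbM of photosystem II, petA (cytochrome f), ndhI, rbcL and cemA. rbcL had -1.17, -1.33 and -0.59 in recovery, against 0.32, -0.12 and 0.44 in 9 h hypoxia (-1.24 ± 0.259, adjusted p = 0.000354), and psbC had -0.11, -0.11 and -0.39, against 0.86, 0.58 and 0.51 (-0.86 ± 0.245, adjusted p = 0.00682). Neither overlapped, and both passed whichever array was left out, but not on the deposited values (rbcL -0.39, psbC at 0.00 after rounding). On that scale 18 of the 69 were higher in recovery and none lower, with 87.7% of all probe sets higher and 2.5% lower. psbA had -1.03, 0.12 and 0.70 in recovery, against 1.58, 0.96 and 0.87 in 9 h hypoxia (-1.21 ± 0.391, adjusted p = 0.0158), without overlap. ndhI, at -1.29 ± 0.504 (adjusted p = 0.0463), had 0.16, 2.31 and 3.23 in recovery, against 3.64, 3.10 and 2.83 in 9 h hypoxia. Replicate 1 of recovery was its low array. cemA, petA and psbM changed by -0.92 ± 0.272, -0.65 ± 0.253 and -0.62 ± 0.244. Blocked on replicate number, 11 fell (background 20.1% higher and 19.6% lower). psbA did not pass without replicate 1 of recovery (-0.73) or of 9 h hypoxia (-0.98). ndhI did not pass without replicate 1 of recovery (-0.42) or replicate 1 (-1.07) or 2 (-1.33) of 9 h hypoxia. The ndhI call was also lost with quantile normalization (-1.24) and on the deposited values (-0.44). cemA did not pass without replicate 1 of recovery (-0.78) or replicate 3 of 9 h hypoxia (-0.75). petA did not pass without replicate 1 or 2 of recovery or replicate 1 or 3 of 9 h hypoxia (-0.36 to -0.70), nor psbM without replicate 1 or 2 of recovery or replicate 1 or 3 of 9 h hypoxia (-0.34 to -0.69), and both had the opposite sign on the deposited values (0.21 and 0.23).

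Replicate 1 of polysomal recovery was low for a group of transcripts, but other polysomal arrays were low as well. It held the lowest of the 3 recovery values for 43 of 69 genes, and replicate 2 of polysomal 9 h air was lowest for 51. In polysomal 2 h hypoxia replicate 2 was lowest for 39, and in polysomal 2 h air replicate 1 for 38. petB had 0.31, 2.73 and 3.02 in polysomal RNA of recovery, against 3.61, 2.26 and 4.25 in 9 h air. matK had 0.10, 2.29 and 2.32, against 3.38, 2.69 and 3.48, and clpP 0.23, 2.22 and 2.50, against 3.31, 2.47 and 2.86. In each of these genes replicate 1 was the lowest of the recovery arrays by over 1.5 log2 units. These 3, with rpl33 (-1.33 ± 0.359), ccsA (-1.13 ± 0.44) and rps18 (-1.04 ± 0.201), made up the 6 genes that fell in polysomal recovery relative to 9 h air (background 19.9% of all probe sets lower and 17.1% higher). No gene rose, and the median was -0.16.

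The counts depended on single arrays. Without replicate 1 of recovery, rps18 alone was lower than in 9 h air (1 gene), and against 9 h hypoxia 2 fell, psbC and rbcL. Other arrays moved the counts too, which are given without the share of all probe sets in the same fits. Against 9 h air, 12 fell without replicate 3 of recovery, 3 without replicate 1, 16 without replicate 2 and 2 without replicate 3 of 9 h air. Against 9 h hypoxia, 19 fell without replicate 3 of recovery and 13 without replicate 3 of 9 h hypoxia. rps18 had -0.26, 0.50 and 0.96 in recovery, against 1.31, 1.38 and 1.64 in 9 h air (adjusted p = 0.000138), and its groups did not overlap.

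**Figure D5:**
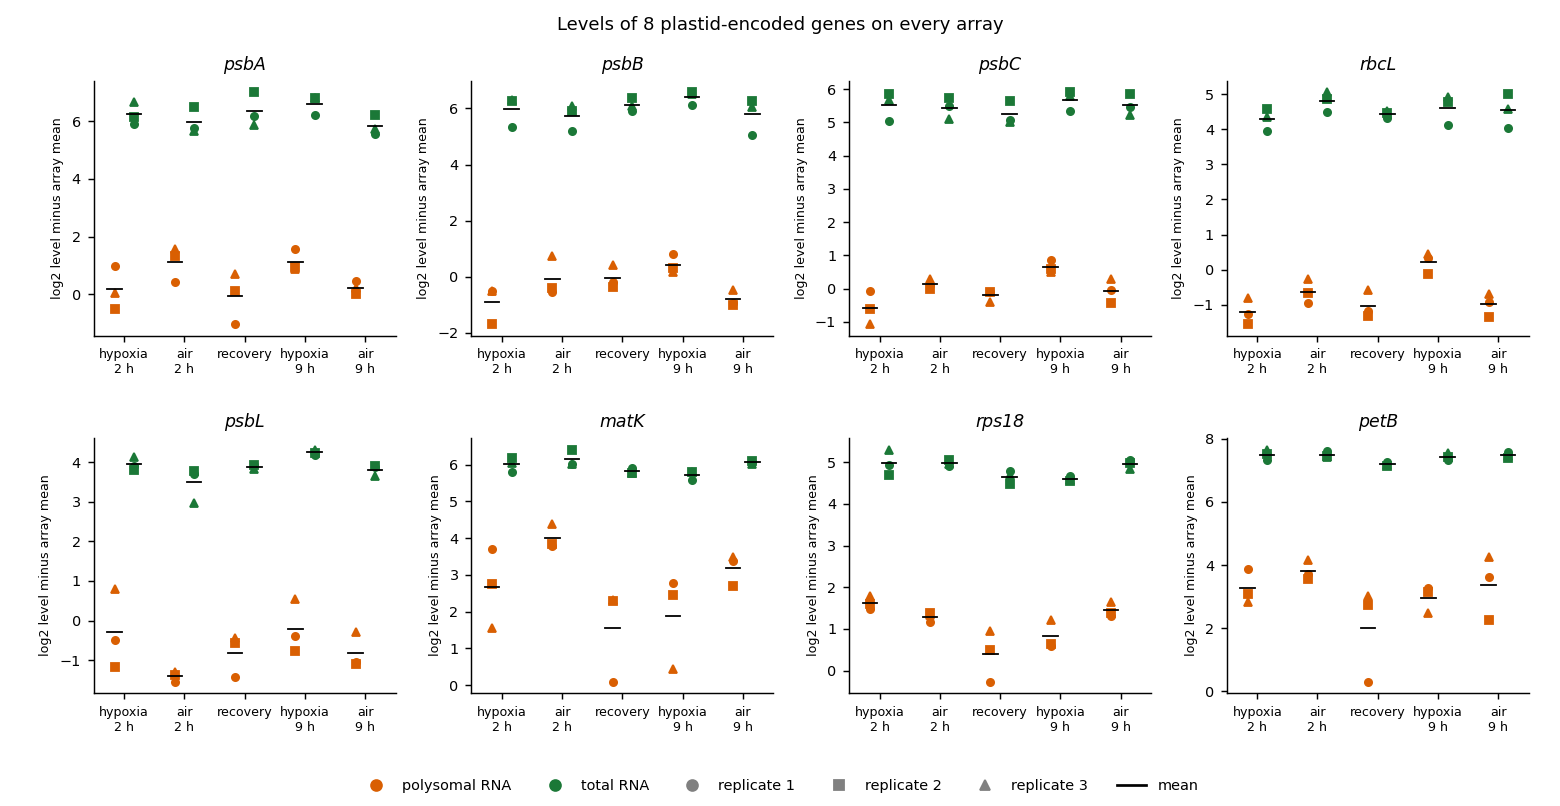
Mean-centred log2 levels (y axis) of 8 plastid-encoded genes on every array, by condition (x axis), with polysomal RNA to the left of total RNA, replicates 1 to 3 as circles, squares and triangles, and group means as black bars. Polysomal values lie below total RNA values for all 8 genes, rbcL has its 3 highest polysomal values in 9 h hypoxia, and matK and petB have 1 low array in recovery.

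Whether hypoxia changed the gap between the pools was tested as a difference of differences (the polysomal change minus the total RNA change). At 2 h 0 of 69 passed in limma, against a background of 7.38% of all probe sets higher and 7.62% lower, and the median was -0.38. Only 3 (psbA, psbB and psbC) had an unadjusted p under 0.05 in limma. No share of all probe sets is given for that threshold, and a class pattern was not tested. At 9 h rbcL passed, with the gap smaller by 1.15 ± 0.367 in hypoxia (adjusted p = 0.0227; background 11.5% higher and 12.7% lower), and the median of the 69 was -0.21. The rbcL call was lost without replicate 1 (1.10) or 3 (1.04) of polysomal 9 h hypoxia, replicate 1 of total 9 h hypoxia (0.91), replicate 2 of polysomal 9 h air (0.98) or replicate 2 of total 9 h air (0.92). It was also lost without replicate 1 (1.14), 2 (0.99) or 3 (1.32) in all groups, and on the deposited values the rbcL difference was 0.15 (adjusted p = 0.706, limma). For comparison, 7 of the 9 measured nuclear genes for plastid ribosomal proteins and 11 of the 16 mitochondrion-encoded genes were lower in this test at 9 h and none higher (medians -0.92 and -0.87). For most of these nuclear genes the polysomal minus total difference was above 0 in 9 h air and below 0 in 9 h hypoxia.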

How the data were processed

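The deposited table holds log2 signals of 30 Affymetrix arrays made by the authors with RMA, per the submitters' processing notes; RMA settings and the step that left polysomal arrays at lower means have no record in those notes. The 22810 probe sets included 64 controls, and the other 22746 were tested. By GEO's platform annotation 13513 had 1 gene, 503 several and 8730 none listed. Plastid genes and their order came from RefSeq (TAIR10.1). Mitochondrial genes were taken by the platform's symbols (nad, cox, ccb, cob, atp, matR, orfX, mttB and ccm), so those with other symbols were left out.

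limma 3.58.1 in R 4.3.3 was fitted over all 30 arrays with 1 mean per group (20 residual degrees of freedom), with moderated statistics, two-sided tests and Benjamini-Hochberg adjustment over all probe sets at 0.05. There were 16 comparisons in the design and 3 added after the values were seen. Replicates were independent experiments per the labels' protocols, and 3 arrays a group limit the precision. Members and lists were chosen with earlier results of these data known. Every member was counted by class; per-array values are given for a set exemplar of each class, for its largest change at 9 h in total RNA, and for genes that passed. Array values chosen after they were seen concern the genes low in 1 recovery array.

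Every call comes from the fit without a replicate block, unless a block is named; replicate numbers were taken to pair the arrays where same-numbered arrays deviated together in all 3 pairs (correlations over 0.1). This held for total RNA at 2 h (0.13 to 0.47), total recovery against hypoxia (0.222 to 0.442) and air (0.115 to 0.295), polysomal RNA at 9 h (0.106 to 0.18), polysomal recovery against hypoxia (0.237 to 0.269), 9 h against 2 h air in both pools, and polysomal against total RNA. On simulated data with 200 changed probe sets of 22746 per fold size, the 9 h total RNA test recovered 42.5%, 94.0% and 99.5% of log2 changes of 0.5, 1.0 and 2.0. These rates are for probe sets drawn from the whole array, with a median standard error of 0.131; the plastid genes had 0.338 and were not simulated on their own.

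Of the nuclear lists, 1 of 20 genes for plastid transcription could be measured (AT5G15700, -0.04 in total RNA at 9 h, not passing) and 0 of 10 for plastid RNA stability. Alternatives were leaving out arrays or replicate numbers, centring on the mean or median, deposited values, quantile normalization, a filter on the dimmest 40% of probe sets, separate fits of the groups compared, and the replicate block. Each gene had 1 probe set, so a rule on several probe sets changed nothing. Counts from fits with arrays left out are given without the share of all probe sets in those fits.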

Additional observations from a re-analysis of the deposited data

Results flagged for a closer look

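Long and short hypoxia moved a few plastid transcripts of polysomal RNA differently, as tested by the difference between the 9 h and the 2 h effect on mean-centred values (limma, adjusted over all probe sets; a comparison added after the values were seen). The effect was higher at 9 h for psbB by 2.08 ± 0.507 (adjusted p = 0.00393), psbA by 1.83 ± 0.552 (adjusted p = 0.0182), rbcL by 1.78 ± 0.367 (adjusted p = 0.000866) and psbC by 1.42 ± 0.347 (adjusted p = 0.00406). For rps18 the difference was -0.95 ± 0.284 (adjusted p = 0.0171). These 5 of 69 compare with a background of 9.14% of all probe sets higher and 11.6% lower. psbC and rbcL kept their call under each of the 21 alternatives tried; psbA lost it without replicate 1 of 9 h hypoxia (1.61), replicate 2 of 2 h hypoxia (1.49) or replicate 3 of 2 h air (1.59), and rps18 without replicate 1 of 9 h hypoxia (-0.84) or replicate 3 of 9 h air (-0.85). With a replicate left out of all groups, psbA lost it without 2 (1.38) or 3 (1.65), rps18 without 2 (-0.95) and psbB without 2 (1.82), the only loss for psbB. psbA and psbB were themselves at -0.88 and -0.74 in polysomal 9 h air against 2 h air (neither passing). The same difference in total RNA passed for 0 of 69 (limma; 1 at an unadjusted p under 0.05), with a background of 8.12% higher and 10.1% lower.

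The change of rbcL between pools at 9 h, 1.15, is listed because the response of rbcL to hypoxia differed between polysomal and total RNA in the test of that difference; the call was lost without any of the 5 arrays named with it above, and the value was 0.15 on the deposited scale.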

How the results depend on the processing

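The lower level in polysomal than in total RNA held for 69 of 69 genes in every condition under every alternative tried, except 68 in 9 h air without replicate 3. Counts of changes were less stable. With arrays left out they ranged over 0 to 4 (1 in the report) for total RNA at 2 h, 2 to 13 (9) at 9 h, 0 to 4 (1) and 0 to 1 (0) for recovery against hypoxia and air, and 0 to 1 (0) for 9 h against 2 h air. In polysomal RNA the ranges were 0 to 15 (3) at 2 h, 4 to 8 (5) at 9 h, 2 to 21 (7) and 1 to 16 (6) for recovery against hypoxia and air, and 0 to 1 (0) for 9 h against 2 h air. The change of the gap between pools ranged over 0 to 3 (0) at 2 h and 0 to 1 (1) at 9 h, and the difference between the 9 h and 2 h effects over 2 to 7 (5) in polysomal and 0 to 2 (0) in total RNA.

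Shares of all probe sets under these alternatives are given above for some fits only. The counts of plastid genes that follow therefore do not say whether the whole array moved with them. With only the groups compared, 18 passed for total RNA at 9 h, 7 for total recovery against hypoxia, 7 against air, 1 for polysomal RNA at 2 h, 9 at 9 h and 1 for 9 h against 2 h air. With the array median subtracted the counts were 16 (total, 9 h), 6 (total recovery against hypoxia), 12 (polysomal, 9 h), 11 (polysomal recovery against hypoxia) and 1 (total, 9 h minus 2 h effect). Subtracting the array mean gave 2 for total recovery against hypoxia. Quantile normalization gave 6 for total RNA and 12 for polysomal RNA at 9 h. Without the dimmest 40% of probe sets they were 3 (total recovery against hypoxia) and, in polysomal RNA, 7 (2 h), 8 (9 h) and 11 (recovery against hypoxia). With the replicate block they were 4 and 3 for total recovery against hypoxia and air, 9 for polysomal RNA at 9 h and 11 for polysomal recovery against hypoxia. By the rule on correlations, replicate numbers did not pair the arrays at 2 h in polysomal RNA, where the block gave 9 (5 higher and 4 lower, so the balance turned). By the same rule they did not at 9 h in total RNA, where the block gave 12. There, however, replicate 1 was lowest for 52 of the 69 plastid genes in 9 h hypoxia and 40 in 9 h air. The block changed no other count by over 1.5 times.

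On deposited values without centring, polysomal counts were 50 lower at 2 h, 42 lower at 9 h (reversed in balance), 18 higher in recovery against hypoxia (reversed), 11 lower against air, and for the gap between pools 42 lower at 2 h and 39 lower at 9 h (reversed). There the polysomal arrays as a whole averaged lower in hypoxia, and most probe sets were called lower, as given above. No share of all probe sets is given for the gap or for recovery against air. Those counts are therefore not read as a reversal particular to the plastid genes. On that scale psbC at 9 h was at -0.31, and psbM and petA in recovery against hypoxia at 0.23 and 0.21, against the sign given above. Of the gene-level alternatives 1271 kept the direction and the side of the threshold, 157 kept the direction alone and 3 reversed; the causes were not tested.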

Other observations

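The 8 probe sets annotated to both copies of plastid genes in the inverted repeat, which stand for no single gene entry, gave values like those of the 69. All 8 were lower in polysomal than in total RNA in each condition, with median log2 differences of -4.72 in 2 h hypoxia, -4.23 in 2 h air, -4.95 in recovery, -5.15 in 9 h hypoxia and -4.38 in 9 h air. In total RNA 3 of the 8 rose at 9 h of hypoxia and none fell (21.3% of all probe sets higher and 24.5% lower), with a median of 0.70, against 0.29 for the 69 genes; the difference between these medians was not tested.

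Nuclear genes for plastid ribosomal proteins were measured in both pools. At 9 h of hypoxia 5 of 9 rose in total RNA (21.3% of all probe sets higher), while in polysomal RNA 7 of 9 fell relative to the array mean (25.3% of all probe sets lower; median -0.49) and none rose. At 2 h none of the 9 passed in total RNA (8.20% of all probe sets higher and 12.5% lower), and 6 fell in polysomal RNA (17.6% lower; median -0.50).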
